A study of Homo sapiens and Mus musculus with 4 samples.

Results

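Gene expression of 2 human and 2 mouse lymphocyte lines was compared gene by gene across the species. The comparison covered protein-coding genes whose symbol, written in capitals, was the same and unique in both species, with mitochondrially encoded genes left out. This gave 15486 genes of the 60736 rows of the table, in which 32738 rows were human and 27998 were mouse. For each gene the human row was read in the human lines Jurkat and TALL104, and the mouse row in the mouse lines EL4 and IVA12. A gene was described as higher in a species when the lower of its 2 lines exceeded the higher of the other 2 lines.

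The study sequenced messenger RNA of each line in bulk, 1 library per line, as a baseline for single-cell methods run on a mixture of these cells. Jurkat is a CD4 T-cell leukaemia line grown in RPMI-1640 medium. TALL104 is a CD8 T-cell leukaemia line grown in IMDM medium with interleukin-2. EL4 is a CD4 T-cell lymphoma line grown in RPMI-1640 with 2-mercaptoethanol, and IVA12 is a B-cell hybridoma grown in DMEM. No line was treated beyond its culture medium, and the labels give no genotype. Both human lines are therefore T cells, while the mouse lines are 1 T-cell and 1 B-lineage line. Species, lineage, culture medium, genome build and gene annotation cannot be told apart in this design. The lines of a species are not replicates of each other, and an exact permutation test of 2 against 2 libraries cannot go below p = 0.333, so no test was made.

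T cells recognise antigen through a receptor that signals through the CD3 chains and the kinase LCK. LEF1 and ETS1 are transcription factors expressed in T cells. Cells of the B lineage use CD79A and CD79B in their receptor, and plasma cells depend on IRF4 and XBP1 for antibody secretion. All dividing cells share a large common programme of ribosomes, proteasomes, respiration and DNA replication. Orthologous genes of the 2 species are counted on different gene models, whose length and overlapping neighbours enter the measured value.

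The values are FPKM, that is fragments scaled to gene length and sequencing depth, rescaled so that the shared genes of each library sum to 1000000. They are called values below. Their share of the FPKM on rows of the library's own species was 69.2% (TALL104) to 77.2% (Jurkat) in human and 86.2% (EL4) to 87.2% (IVA12) in mouse, and between 9004 and 10050 of them had a value of at least 1. Recovered library totals were between 25286728 and 34783047 reads. The lineages were checked with fixed markers. The 12 T-cell markers reached a value of 1 for 12 markers in Jurkat and EL4, 11 in TALL104 and 4 in IVA12. Their summed values were 5812 and 5449 in the human lines and 7142 and 48.4 in EL4 and IVA12. The 12 B-cell and plasma-cell markers summed to 10350 in IVA12 and to 448 (EL4), 501 (Jurkat) and 706 (TALL104) elsewhere. The B-cell factor PAX5 was near 0 in IVA12, at 0.555, while the plasma-cell gene JCHAIN was at 4581. Summed epithelial markers were 250.2 in IVA12 and at most 10.6 in the other lines, and summed myeloid markers 144.9 in IVA12 against at most 17.4.

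Of the 15486 genes, 11692 reached a value of 1 in at least 1 library and were tested for a gap. The gap is the ratio of the lower value of the higher species to the higher value of the other, each plus 1, and a gene was called at a gap of at least 2-fold. Under this rule 1806 genes (15.4% of those tested) were higher in both human lines and 735 (6.29%) were higher in both mouse lines. With no minimum size, 4420 genes (37.8%) were human higher and 2123 (18.2%) were mouse higher, and in 5149 genes the species overlapped.

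The excess of human-higher calls moved with the scale of the values. The median difference between the human and the mouse mean on the log2(value + 1) scale was 0.50 over the genes tested, not 0. Of all calls, 71.1% were human higher. On the FPKM as deposited this share was 43.5%, with 768 human-higher and 996 mouse-higher genes. After scaling by the median ratio over genes at 1 or more in every library it was 57.75%, with 1356 and 992 genes. The numbers of genes in each direction therefore depend on the scaling, and differences of gene groups are given below beside the shift of 0.50.

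**Figure D1:**
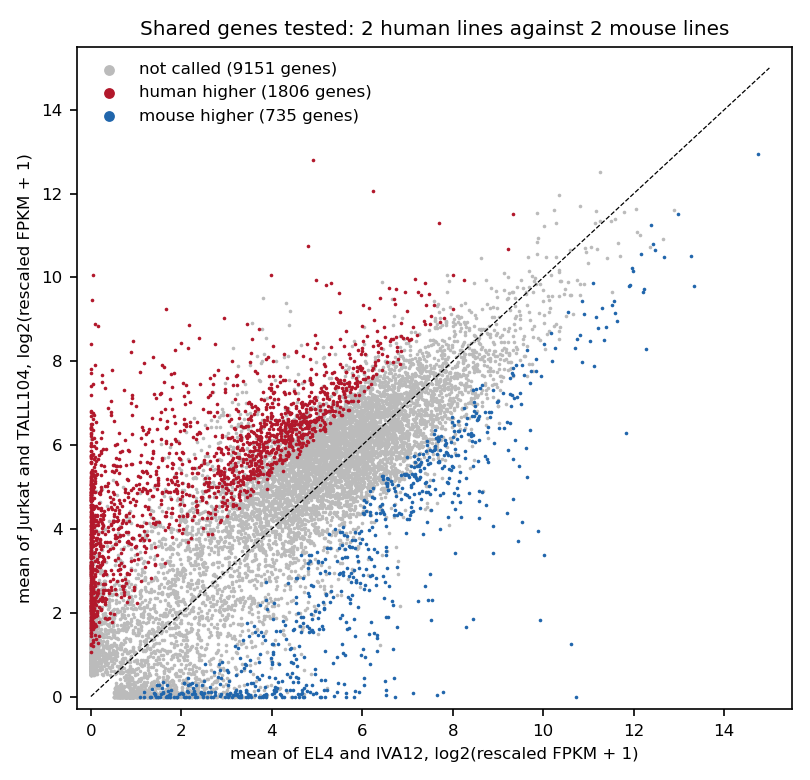
Each point is 1 of the 11692 genes tested, with the mean log2(value + 1) of EL4 and IVA12 on the x axis and of Jurkat and TALL104 on the y axis, and the dashed line marks equality. The 1806 human-higher genes (red) lie above the line and include 72 genes at 10 or more in both human lines and 0 in both mouse lines, and the 735 mouse-higher genes (blue) lie below it.

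The largest gaps with the human lines higher were at genes of T-cell signalling. SH2D1A encodes SAP, an adaptor of SLAM-family receptors in T and NK cells. It was at 565 in Jurkat and 882 in TALL104, with EL4 at 0 and IVA12 at 0.0255, a gap of 552-fold. These values rest on 9435 and 10700 reads in the human libraries and on 0 and 1 in the mouse libraries. The human gene (ENSG00000183918) lies on chromosome X at 123361718 to 123507047 (GRCh37), and the mouse gene (ENSMUSG00000005696) on chromosome X at 42502453 to 42529330 (GRCm38). Thus even the mouse T-cell line EL4 had no read on a gene that both human T-cell lines expressed strongly.

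LDHB, the lactate dehydrogenase subunit that dominates in oxidative tissues, was at 2415 in Jurkat and 473 in TALL104, with EL4 at 0.0714 and IVA12 at 0. The other subunit gene, LDHA, was expressed in all lines, with 1005 and 315 in the human lines and 2207 and 1198 in the mouse lines, a mouse-higher gap of 1.19-fold that is under the threshold and is lost without division by length. LDHB was thus at or near 0 in the mouse lines while LDHA was not.

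CD40LG encodes the ligand by which helper T cells activate B cells. It was at 187 in Jurkat and 608 in TALL104 and was listed at 0 in both mouse lines. PRKCQ encodes protein kinase C theta, which acts downstream of the T-cell receptor, and was at 152 and 335 in the human lines and listed at 0 in both mouse lines. CD7, a surface glycoprotein of T and NK cells, was at 105 and 546 against 0 and 0.124. Each of these T-cell genes was thus absent or nearly absent from EL4 as well as from IVA12.

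The other genes among the 15 largest gaps have less specific roles. The sulphotransferase gene CHST11 was at 252 in Jurkat and 173 in TALL104 and listed at 0 in the mouse lines, as were TCEAL8 (196 and 145), HDGFL3 (163 and 130) and the autophagy receptor gene CALCOCO2 (79.3 and 153). NRN1, HENMT1 (a methyltransferase of small RNAs) and OCIAD2 were at 133 to 254 in the human lines and at 0.630 or below in the mouse lines. In 14 of the 15 genes, neither species' gene model shared exons or read-length sequence with another gene beyond 10%. Overlaps and copies here and below were taken on GENCODE 44 and M21, while the paper names other annotation releases. They may thus differ from those of the gene models behind the FPKM. The exception was CPNE1, at 180 and 229 in the human lines against 0.0746 and 0.312, and 99.6% of its mouse coding bases lie in exons of the overlapping gene Gm28036.

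The GTPases of immunity-associated proteins, a family tied to lymphocyte survival, were looked at after 1 member appeared among the largest gaps. Of 6 tested family members, 5 were human higher, beside 15.4% of all genes, a count that the choice of the family favours. GIMAP4 was at 177 in Jurkat and 506 in TALL104, with EL4 at 0.732 and IVA12 at 0.994, and GIMAP7 at 298 and 1227 against 4.53 and 0.786. GIMAP5, GIMAP6 and GIMAP1 had gaps of 17.2-fold, 7.75-fold and 3.02-fold, and GIMAP1 did not pass on the FPKM as deposited. In mouse, 15.9% of the coding bases of GIMAP5 and 3.86% of those of GIMAP1 lie in exons of Gm28053, which was at 0.567 in EL4 and 0 in IVA12. GIMAP8 had a gap of 1.91-fold, just short of the threshold, with 3.33 in Jurkat and 138 in TALL104. The highest value of the family was in TALL104 for each named member, and the lowest human value still exceeded both mouse lines.

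Counted over all genes, 118 were at 10 or more in both human lines and under 0.1 in both mouse lines, of which 72 were listed at 0 in both. The reverse held for 26 genes, of which 14 were listed at 0 in both human lines. Further genes absent from the mouse libraries were STMN3 (105 and 66.7), BEX4 (61.8 and 130), APOL6 (53.8 and 198) and NIPSNAP3A (86.5 and 49.2), and the T-box factor EOMES was at 36.6 in Jurkat and 105 in TALL104 with 0 in both mouse lines. No fold is given for genes at 0.

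The largest gap with the mouse lines higher was at EEF1G, a subunit of translation elongation factor 1. It was at 1888 in EL4 and 1515 in IVA12 and listed at 0 in Jurkat and TALL104. All of its human coding bases (100%) lie in exons of a read-through gene on the same strand (ENSG00000255508), and this gene itself was at 0.311 in Jurkat and 0.156 in TALL104. EEF1G (ENSG00000254772) is on chromosome 11 at 62327068 to 62341558 in GRCh37, and Eef1g (ENSMUSG00000071644) on mouse chromosome 19 at 8967041 to 8978479. Both rows of the human pair were thus at or near 0.

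Of the 15 largest mouse-higher gaps, 8 were at genes with shared sequence or overlap, and 7 of them had at least 50% of their human coding bases in another counted gene. The proteasome subunit PSMA2 was at 11.1 and 7.88 in the human lines against 906 and 1166 in the mouse lines, with 97.8% of its human coding bases in exons of another gene. SARNP, an RNA-binding protein of mRNA export, was at 1.77 and 2.56 against 261 and 373, with an overlap of 92.9%. The mitochondrial ribosomal gene MRPL30 (0.152 and 0.0697 against 79.0 and 105) had an overlap of 95.3%, RPS10 (18.64 and 10.98 against 992 and 895) of 56.9% and RPL36A (13.8 and 10.6 against 940 and 511) of 67.3%. In each of these 5 genes the overlapping human gene was itself low, at 1.39 or below in Jurkat and 0.797 or below in TALL104. The part of overlap in the low human values was not tested, because the reads left out of the counts were not used here.

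Other large gaps had no such overlap. ACADL encodes the long-chain acyl-CoA dehydrogenase of fatty acid oxidation. It was at 248 in EL4 and 160 in IVA12 against 0.0669 in Jurkat and 0 in TALL104, a gap of 151-fold that rests on 4433 and 2283 mouse reads and 2 and 0 human reads. ADPRH, which removes ADP-ribose from arginine, was at 72.4 and 111 against 0.0636 and 0.569. SETD6, a lysine methyltransferase, was at 45.16 and 52.99 in the mouse lines and listed at 0 in both human lines. These genes were at like levels in the mouse T-cell and B-lineage lines.

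TNFRSF13B encodes TACI, a B-cell receptor for the survival factors BAFF and APRIL. It was at 47.0 in EL4 and 174 in IVA12 against 0 and 0.0547. SLAMF9, a receptor of the SLAM family, was at 37.2 and 291 and listed at 0 in both human lines. SMOC1, a matrix protein, was at 70.6 and 59.9 against 0 and 0.462, and the endonuclease gene ENDOU at 66.6 and 36.2 against 0.0548 and 0.0754. The B-lineage receptor TACI was thus present in the T-cell line EL4 too, at a lower level than in IVA12.

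Further mouse-higher genes without overlap included AIM2, a sensor of cytosolic DNA (25.1 and 42.6 in the mouse lines, 0 in both human lines), the cytidine deaminase APOBEC1 (20.8 and 58.2, 0 in both) and the cathepsin CTSL (44.6 and 238 against 0 and 0.854). LAMB2, ALDH3B1, TMEM176B, TRIB1 and NOS1 had gaps of 23.4-fold to 33.2-fold. NAT2, an acetyltransferase, was at 29.12 and 21.04 against 0 in both human lines. The symbol match does not show that these pairs are 1-to-1 orthologues.

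**Figure D2:**
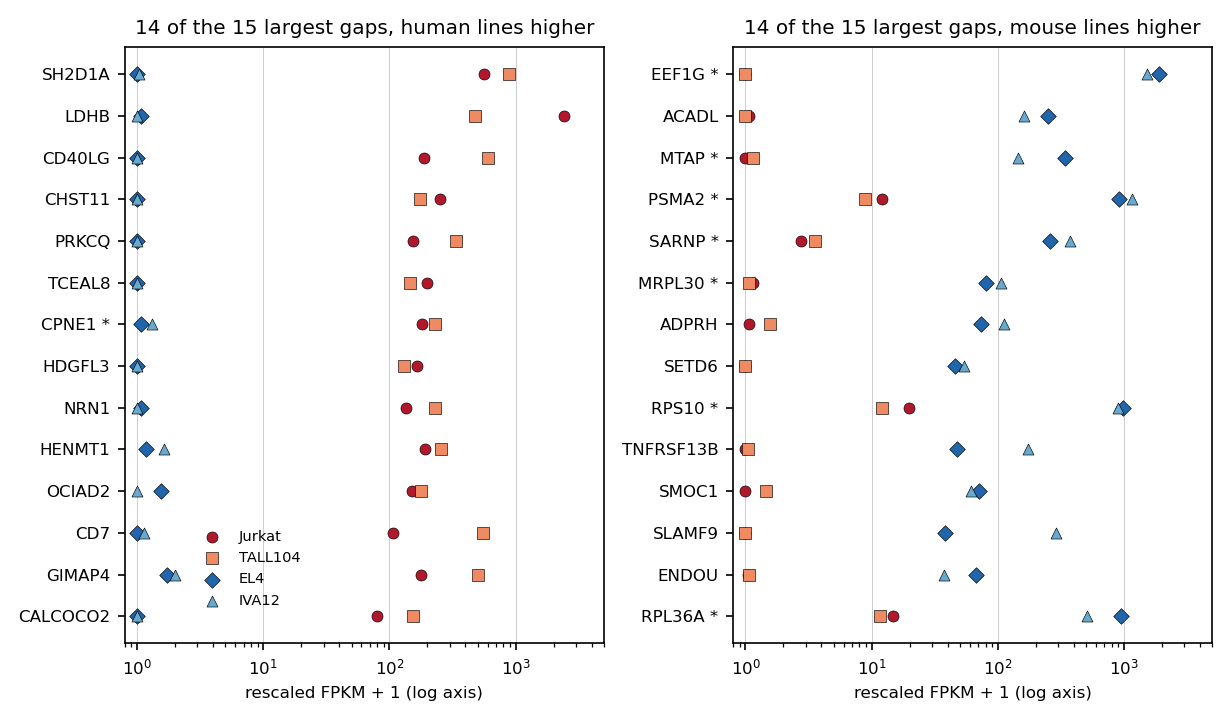
Of the 15 genes with the largest gap in each direction, 14 are shown with the value + 1 of each library on a log axis, 1 symbol per line, and an asterisk marks genes with shared sequence or overlapping exons. The human-higher genes on the left sit at or near 1 on this axis in EL4 and IVA12 with 1 asterisk, and 7 of the mouse-higher genes on the right carry one.

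Shared sequence and overlap were then counted for all genes. A gene was counted when at least 10% of its coding bases lay in same-strand exons of another counted gene, or at least 10% of its read-length windows had an exact copy elsewhere. Of the genes tested, 8.86% had this in either species. Among mouse-higher genes the share was 18.3% at a log2 gap of 1 to 2, 25.4% at 2 to 4 and 35.4% above 4. Among human-higher genes it was 8.12%, 9.48% and 20.1%. In the species with the lower values, 20.1% of the mouse-higher genes had it in human against 6.97% of all genes tested, and 5.70% of the human-higher genes had it in mouse against 2.97%.

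With these genes left out, 1633 of 10656 genes (15.3%) were human higher and 577 (5.41%) were mouse higher. Exact copies were searched over the whole genome in human only, since no mouse genome was used here. How reads with several alignments or on overlapping genes were counted is not given in the sources used here, and its part in these values was not tested.

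**Figure D3:**
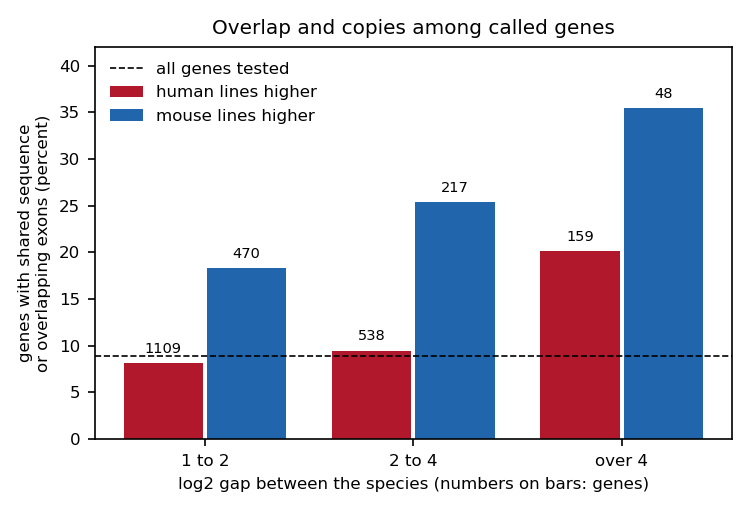
The percent of called genes with shared sequence or overlapping exons in either species is shown by log2 gap, with human-higher genes in red, mouse-higher genes in blue and the number of genes above each bar. The share was highest in the 48 mouse-higher genes with a log2 gap above 4, at 35.4%, against the dashed line of 8.86% for all genes tested.

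The length of the gene models moved with the calls as well. For 9021 genes the length behind the FPKM was recovered from at least 30 reads in both species, and the human length was a median of 1.15 times the mouse length. The ratio was 0.877 for human-higher and 1.96 for mouse-higher genes. Where the mouse length was over 2-fold the human length, 33.7% of 653 genes were human higher and 1.84% were mouse higher. Where the human length was over 2-fold the mouse length, 4.47% of 1431 genes were human higher and 17.7% were mouse higher.

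Reads scaled to depth without division by length (RPM) gave 1324 human-higher (11.5%) and 783 mouse-higher (6.8%) genes, of which 1091 and 481 were called on the FPKM scale too. SH2D1A, LDHB and ACADL kept log2 gaps of 8.22, 8.15 and 6.57 on this scale. The cofilin gene CFL1, a regulator of actin turnover, did not pass on it. It had 417 and 319 in the human lines and 2673 and 2552 in the mouse lines, with lengths of 5863 bases in human and 1148 in mouse, and its log2 gap fell from 2.61 per length to 0.74 in RPM. RPM rests on recovered reads, which are too low by any factor that the recovered length misses. The recovered length equalled the annotated one for 12.27% of tested genes in human and 67.15% in mouse. Calls in RPM and the length classes carry this limit, whose size was not tested.

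**Figure D4:**
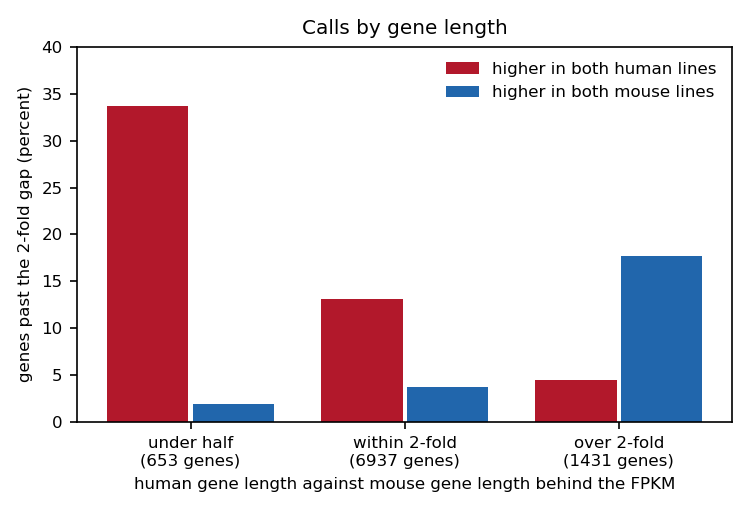
The percent of genes past the 2-fold gap is shown for 3 classes of the human gene length relative to the mouse gene length, with human-higher genes in red and mouse-higher genes in blue. The human-higher share falls from 33.7% to 4.47% and the mouse-higher share rises from 1.84% to 17.7% as the human gene model gets relatively longer.

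Gene lists were described by the members tested, the number called in each direction and the median log2 difference between the human and the mouse mean, to be read beside 15.4%, 6.29% and 0.50 for all genes tested. Of 20 T-cell genes, 6 were human higher and 0 mouse higher, and the median was 3.46. The CD3 chain CD3E was at 849 in Jurkat and 1333 in TALL104, with EL4 at 229 and IVA12 at 0.0978. LCK was at 970 and 989 against 348 and 1.87, and CD247, the zeta chain of the receptor, at 198 and 191 against 21.5 and 0.712. LEF1 was at 718 and 105 against 5.79 and 0, and CD3D passed with a gap of 2.01-fold.

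Several T-cell genes were as high or higher in EL4. CD3G was at 359 and 351 in the human lines and 634 in EL4, and the transcription factor gene TCF7 at 197 and 134 against 2150. THY1 was at 33.3 in Jurkat, 0.102 in TALL104 and 2111 in EL4. For the whole list, leaving out IVA12 lowered the median from 3.46 to 1.24, and leaving out EL4 raised it to 6.28. The size of the T-cell difference thus moved with the choice of mouse line.

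Of 16 tested B-cell and plasma-cell genes, 1 was human higher and 2 were mouse higher, with a median of -2.14. IRF4 was at 35.1 in EL4 and 536 in IVA12 against 0.0498 and 0.0685, and POU2AF1, a coactivator of octamer-binding factors, at 386 and 2487 against 10.7 and 0.0817. CD79A went the other way. It was at 84.4 in Jurkat and 141 in TALL104, with EL4 at 0.539 and IVA12 at 0.193, while its partner CD79B was at 580 in IVA12 and at 0.212 in Jurkat, 27.5 in TALL104 and 1.18 in EL4. MZB1 was at 1774 in IVA12 but also at 243 in Jurkat. Over all shared members of the list the median was -1.61, and without IVA12 it was 0.22, beside 0.51 for all genes.

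Genes of cytotoxic granules had the highest share of human-higher calls of the lists, 7 of 14, with 0 mouse higher and a median of 4.60. NKG7, a granule membrane protein, was at 59.3 in Jurkat and 3464 in TALL104 against 0.245 and 0. The pore-forming protein gene PRF1 was at 17.1 and 1170 against 0.0546 and 2.39, and the cathepsin gene CTSW at 82.5 and 686 against 1.91 and 2.05. GZMA did not pass, with 103 in Jurkat, 5163 in TALL104 and 97.5 in EL4. The levels in TALL104 were many times those in Jurkat, and without TALL104 the median of the list was 2.45.

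Integrins and homing receptors had 10 of 30 human higher and 0 mouse higher, with a median of 2.67. ITGA5, the fibronectin receptor chain, was at 45.0 and 75.6 against 0 and 2.08. ITGA4 was at 535 and 261 against 0.0321 in EL4 and 25.9 in IVA12, and ITGAE at 23.5 and 18.8 against 0.612 and 0.307. The phosphatase CD45, encoded by PTPRC, was at 549 and 1568 against 177 and 7.76. CXCR4 (684 and 544 against 244 and 268) and CD53 passed narrowly, with gaps of 2.03-fold and 2.08-fold. With median ratio scaling 5 of the 30 were human higher, beside 11.6% of all genes, and in RPM 5, beside 11.5%. On the FPKM as deposited 4 were human higher, beside 7.3%.

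Cytokine receptors and their JAK and STAT signalling had 7 of 28 human higher and 0 mouse higher, with a median of 1.58. STAT4 was at 12.5 in Jurkat and 382 in TALL104 against 0.0869 and 0.254. The common gamma chain gene IL2RG was at 539 and 1162 against 93.7 and 19.9, with 65.8% of its mouse coding bases in exons of another gene. The interleukin-2 receptor chain IL2RB was at 4.65 in Jurkat and 593 in TALL104, the line grown with interleukin-2, and CISH, a feedback inhibitor that STAT5 induces, at 3.44 and 202. CISH did not pass in RPM or on the FPKM as deposited. Without TALL104 the median of the list was 0.31, beside 0.42 for all genes. With median ratio scaling 3 of the 28 were human higher, beside 11.6% of all genes, so the share was not above that of all genes. On the FPKM as deposited 2 of the 28 were human higher, beside 7.3% of all genes. In RPM 5 of the 28 were human higher, beside 11.5%.

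Lymphoid transcription factors had 6 of 40 human higher, a share of 15% that is near that of all genes, and 1 mouse higher. SATB1, a chromatin organiser of T cells, was at 126 and 116 against 0 in EL4 and 2.98 in IVA12. BACH2 was at 22.1 and 36.3 against 0.0113 and 0.113, and ETS1 at 672 and 964 against 142 and 105. TAL1, a leukaemia-associated factor, was at 285 in Jurkat and 1.77 in TALL104 and listed at 0 in the mouse lines. Its relative LYL1 was mouse higher, at 13.5 and 130 against 0.141 and 2.27. IKZF1 and GATA3 were not called, and GATA3 was at 76.9, 82.7 and 92.7 in the 3 T-cell lines.

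The common machinery of protein synthesis lay on the mouse side. Of 82 tested cytosolic ribosomal protein genes, 36 (43.9%) were mouse higher and 2 human higher, and the median was -0.97 beside 0.50 for all genes. RPL4 was at 1768 and 1212 in the human lines against 7414 and 13240 in the mouse lines, and RPLP1 at 673 and 1174 against 8199 and 13045. RPL17 was at 101.05 and 58.36 against 3881 and 3391, with 98.2% of its human coding bases in exons of another gene. Of the 40 members with little shared sequence, 21 were mouse higher and 1 human higher. In RPM 11 were mouse higher, beside 6.8% of all genes, and 1 human higher, with a median of -0.54 beside 0.15. The direction thus held while most calls did not, RPL4 and RPLP1 among those lost.

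The members called human higher included RPL10A, which was at 1750 and 1532 against 532 and 669 and did not pass in RPM. RPS12 was at 2821 and 3046 against 9912 and 6488, with exact copies covering 79.6% of its mouse windows, and did not pass in RPM.

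Translation factors had 14 of 40 (35.0%) mouse higher and 0 human higher, with a median of -0.78. EEF1A1, which brings aminoacyl-tRNA to the ribosome and was the highest shared gene of the mouse lines, was at 6982 in Jurkat and 9011 in TALL104, with EL4 at 22030 and IVA12 at 34010. EIF3C was at 35.7 and 7.76 against 723 and 752, and 92.1% of its human read-length windows have an exact copy in the transcripts of another gene. EIF3F was at 116 and 89.8 against 385 and 381, and its log2 gap was 1.71 per length and 0.50 in RPM. On that scale 7 factors were mouse higher, beside 6.8% of all genes, and 1 human higher, and EEF1A1 did not pass.

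Nuclear-encoded subunits of the respiratory chain had 26 of 62 (41.9%) mouse higher and 3 human higher, with a median of -1.16. The complex I subunit NDUFC2 was at 32.6 and 25.9 against 401 and 362, NDUFA9 at 23.01 and 14.54 against 235 and 360 and NDUFA13 at 1.88 and 7.24 against 206 and 110. In human, 76.9%, 67.9% and 55.2% of their coding bases lie in exons of another gene. Among the 46 members with little shared sequence, 17 were mouse higher and 2 human higher. Among these, the cytochrome c oxidase subunit COX4I1 was at 202 and 185 against 781 and 485, and SDHA at 74.7 and 73.5 against 474 and 253. The exceptions were NDUFB2, NDUFB4 and NDUFB7, and NDUFB7 was at 385 and 280 against 63.2 and 35.1 with a mouse length of 4522 bases and a human length of 531. In RPM NDUFB7 turned to a mouse-higher log2 gap of 0.11, and NDUFB4 did not pass on the FPKM as deposited. In RPM 14 subunits were mouse higher, beside 6.8% of all genes, and 2 human higher.

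The proteasome had 9 of 40 (22.5%) mouse higher and 0 human higher, with a median of -0.63. PSMC6, an ATPase of the regulatory particle, was at 68.8 in both human lines against 457 and 957, without shared sequence, and did not pass in RPM. PSMA6 was at 48.6 and 12.8 against 690 and 597, with 70.4% of its human coding bases in exons of another gene. Of 31 members with little shared sequence, 4 were mouse higher. In RPM 3 of the 40 were mouse higher, near the 6.8% of all genes on that scale. Without TALL104 the median of the list was 0.02, beside 0.42 for all genes.

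Glycolytic genes were called in both directions. Of 24 glycolytic genes, 3 were human higher and 5 were mouse higher, with a median of -0.46. Phosphofructokinase of the muscle type, PFKM, was at 3.59 and 3.49 against 94.1 and 108, and the pyruvate kinase gene PKM at 781 and 322 against 3022 and 3297, which did not pass in RPM. The enolase genes crossed. ENO2 was at 143 and 76.5 in the human lines against 0 and 0.866, ENO3 at 20.99 and 22.36 against 112 and 213, and the main form ENO1 was at 2085, 1627, 1083 and 810 and not called, with copies covering 58.55% of its mouse windows.

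Cholesterol synthesis had 7 of 25 (28%) human higher and 1 mouse higher, with a median of 0.75. Over all shared members the median was 0.67, and without Jurkat it was 0.04, beside 0.33 for all genes. Farnesyl diphosphate synthase, FDPS, was at 478 and 148 against 14.6 and 12.8, but 85.9% of its mouse coding bases lie in exons of Gm43738. FDFT1, the squalene synthase, was at 512 and 160 against 38.7 and 35.8 without shared sequence. SC5D, a sterol desaturase late in the pathway, was mouse higher at 41.8 and 31.2 against 100.1 and 86.5. In RPM 3 of the 25 were human higher, near the 11.5% of all genes on that scale, and 0 mouse higher, so SC5D did not pass. Of 33 genes of nucleotide synthesis, 2 were mouse higher, the serine hydroxymethyltransferases SHMT1 (50.6 and 21.4 against 116 and 167) and SHMT2 (188 and 120 against 492 and 1055), and 0 were human higher. Neither SHMT1 nor SHMT2 passed in RPM.

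Of 40 DNA replication genes 0 were called in either direction, and of 40 mitosis and spindle genes 1 was human higher and 0 mouse higher, both below the shares of all genes. On the FPKM as deposited 5 replication and 3 mitosis genes were mouse higher, beside 9.5% of all genes. With median ratio scaling 4 and 2 were mouse higher, beside 8.5% of all genes. On these scales the replication counts were above the share of all genes and the mitosis counts below it. The list medians were -0.894 and -0.995. TOP2A, which untangles DNA, was at 953 and 99.7 in the human lines and 698 and 589 in the mouse lines. TALL104 was the low line here, and without it the medians of replication and mitosis genes were 0.39 and 0.55, beside 0.42 for all genes. BUB3, the spindle checkpoint gene that was called, was at 503 and 279 against 123 and 114 and did not pass in RPM.

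Among regulators of the G1 phase, CCND1 was mouse higher (36.0 and 34.7 against 0.395 and 2.26) as was CCNE1 (191 and 137 against 29.6 and 6.06), and CCND3 (166 and 159 against 62.1 and 27.5) and E2F3 (146 and 219 against 30.2 and 49.6) were human higher. CCND3 did not pass in RPM, and neither CCND3 nor E2F3 passed on the FPKM as deposited. Inhibitors of the cycle and targets of p53 had 6 of 28 human higher and 1 mouse higher, with a median of 0.17 beside 0.50 for all genes. With median ratio scaling the median was -0.16, beside 0.17 for all genes. In RPM it was -0.22 beside 0.15, and on the FPKM as deposited -0.23 beside -0.08. The list median was thus below that of all genes on each of these scales. The death receptor FAS was at 44.9 and 264 against 10.7 and 2.34, and PHLDA3 at 10.1 and 49.7 against 0 in both mouse lines.

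The inhibitor called mouse higher, CDKN2B, lies beside MTAP on human chromosome 9, and neighbouring genes were looked at after these values were seen. MTAP, the phosphorylase that salvages methylthioadenosine (ENSG00000099810, 21802635 to 21937650, GRCh37), was at 0 in Jurkat and 0.152 in TALL104, with EL4 at 338 and IVA12 at 143, on 0 and 6 human reads. CDKN2B (ENSG00000147883, 22002902 to 22009304) was at 0 and 0.249 against 45.5 and 12.8. CDKN2A (ENSG00000147889, 21967751 to 21995300), which lies between them, was at 0 and 0.0918 in the human lines, 0.669 in EL4 and 411 in IVA12. All 3 adjacent genes were at or near 0 in both human lines.

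Farther from them, KLHL9 (21329664 to 21335403) was at 0.0514 in Jurkat and 51.3 in TALL104, and FOCAD at 30.6 and 19.7 and MLLT3 at 19.9 and 13.5 were expressed in both human lines. In human, 29.8% of the coding bases of MTAP lie in same-strand exons of another gene, which was at 0 in both human lines. CDKN2B had no such overlap. Loss of the DNA and silencing of the genes were not measured and cannot be told apart from these values.

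Apoptosis regulators had 6 of 32 human higher and 1 mouse higher, with a median of 0.91. The executioner caspase CASP6 was at 98.53 and 101.1 against 0.943 and 2.36, and the death-receptor adaptor FADD at 84.6 and 77.9 against 12.7 and 11.8, although FADD did not pass in RPM. BCL2L2 was mouse higher at 1.89 and 3.81 against 32.5 and 17.9, with 55.8% of its human and 63.4% of its mouse coding bases in exons of another gene.

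Interferon-stimulated genes and sensors had 9 of 41 human higher and 2 mouse higher, with a median of 0.88. In RPM the median was 0.21, beside 0.15 for all genes, and 7 of 41 were human higher, beside 11.5%. With median ratio scaling 6 of 41 were human higher, beside 11.6% of all genes, and on the FPKM as deposited 5 of 38, beside 7.3%. IFITM1 was at 67.4 and 1868 against 0.307 and 1.80, and OAS2 at 43.8 and 130 against 0.0755 and 2.30. The RNA-editing enzyme ADAR was at 468 and 378 against 36.5 and 66.2. ISG20 was mouse higher, at 5.02 and 5.63 against 24.2 and 32.4, and did not pass in RPM. Of 16 genes of class I antigen presentation 0 were called, and B2M was at 1192 and 7739 in the human lines and 7105 and 1772 in the mouse lines.

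DNA repair genes had 6 of 28 human higher and 2 mouse higher. The kinase PRKDC, which joins DNA ends together with the Ku proteins, was at 352 in Jurkat and 187 in TALL104, with EL4 at 16.5 and IVA12 at 14.1. The Ku genes were human higher too, XRCC6 at 1421 and 517 against 104 and 87.6 and XRCC5 at 1027 and 403 against 158 and 181. PRKDC and XRCC6 passed under every scaling tried, with log2 gaps of at least 2.59 and 1.29. XRCC5 passed in RPM at 1.65. It did not pass with median ratio scaling (0.80), with ribosomal protein genes left out (0.97) or on the FPKM as deposited (0.45). Under each of these 3 scalings 3 of the 28 were human higher, beside 11.6%, 13.7% and 7.3% of all genes in turn. Of the other end-joining genes, which were looked at with their values known, NHEJ1 was mouse higher at 0.661 and 0.910 against 3.41 and 11.7, and XRCC4 was not called at 39.2 and 31.3 against 14.8 and 16.3. The mismatch repair genes divided, with MSH3 human higher at 52.6 and 70.6 against 16.6 and 10.5 and MSH6 mouse higher at 63.7 and 41.4 against 168 and 186, and neither passed in RPM. The median of the list was 1.17 per length and -0.12 in RPM, beside 0.50 and 0.15 for all genes.

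Cytoskeletal genes had 9 of 40 (22.5%) human higher and 3 mouse higher, with a median of 0.46, near that of all genes. On the FPKM as deposited the median of the list was -0.14, beside -0.08 for all genes. Thymosin beta 4, TMSB4X, a binder of actin monomers, was at 4579 in Jurkat and 11210 in TALL104, with EL4 at 294 and IVA12 at 2.05. TMSB10 was at 3912 and 4650 against 617 and 8.26. Its recovered lengths were 246 bases in human and 1276 in mouse, and it did not pass in RPM. Whether the short human length misses a factor, which would lower its RPM too, was not tested. Exact copies covered 18.6% of the mouse windows of TMSB10. CAPG, which caps actin filaments, was at 261 and 1058 against 0.931 and 29.9. Both thymosins were lowest in IVA12.

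Smaller lists held fewer calls. Galectins, S100 proteins and annexins had 2 of 18 human higher, S100A10 (59.2 and 268 against 0 and 16.7) and S100A11 (1.08 and 1270 against 0 in both). S100A11 did not pass in RPM, with median ratio scaling or on the FPKM as deposited. Redox genes had 4 of 31 human higher and 2 mouse higher, among them PRDX5 (820 and 657 against 89.3 and 76.1) and HMOX1 (0 and 8.49 against 66.2 and 36.8). Chaperones had 2 of 32 human higher and 3 mouse higher, iron and haem genes 2 of 19 in each direction, telomere genes 2 of 16 human higher and 1 mouse higher, and DNA methylation and silencing genes 3 of 24 human higher and 2 mouse higher. The last list had 1 human higher and 6 mouse higher on the FPKM as deposited, beside 7.3% and 9.5% of all genes. With median ratio scaling it had 1 and 6, beside 11.6% and 8.5%, and in RPM 1 and 5, beside 11.5% and 6.8%. Its median minus that of all genes was -0.24, and -0.23, -0.25 and -0.83 on these scales in turn. TERF2IP, a telomere protein, was at 238 and 297 against 35.7 and 21.3, and the telomere helicase RTEL1 at 3.24 and 1.73 against 46.8 and 51.8, with 93.5% of its human coding bases in a read-through gene. The demethylase TET1 was at 17.1 and 9.29 against 0.0991 and 0.0955. Of 11 tested markers of other cell types 0 were called.

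**Figure D5:**
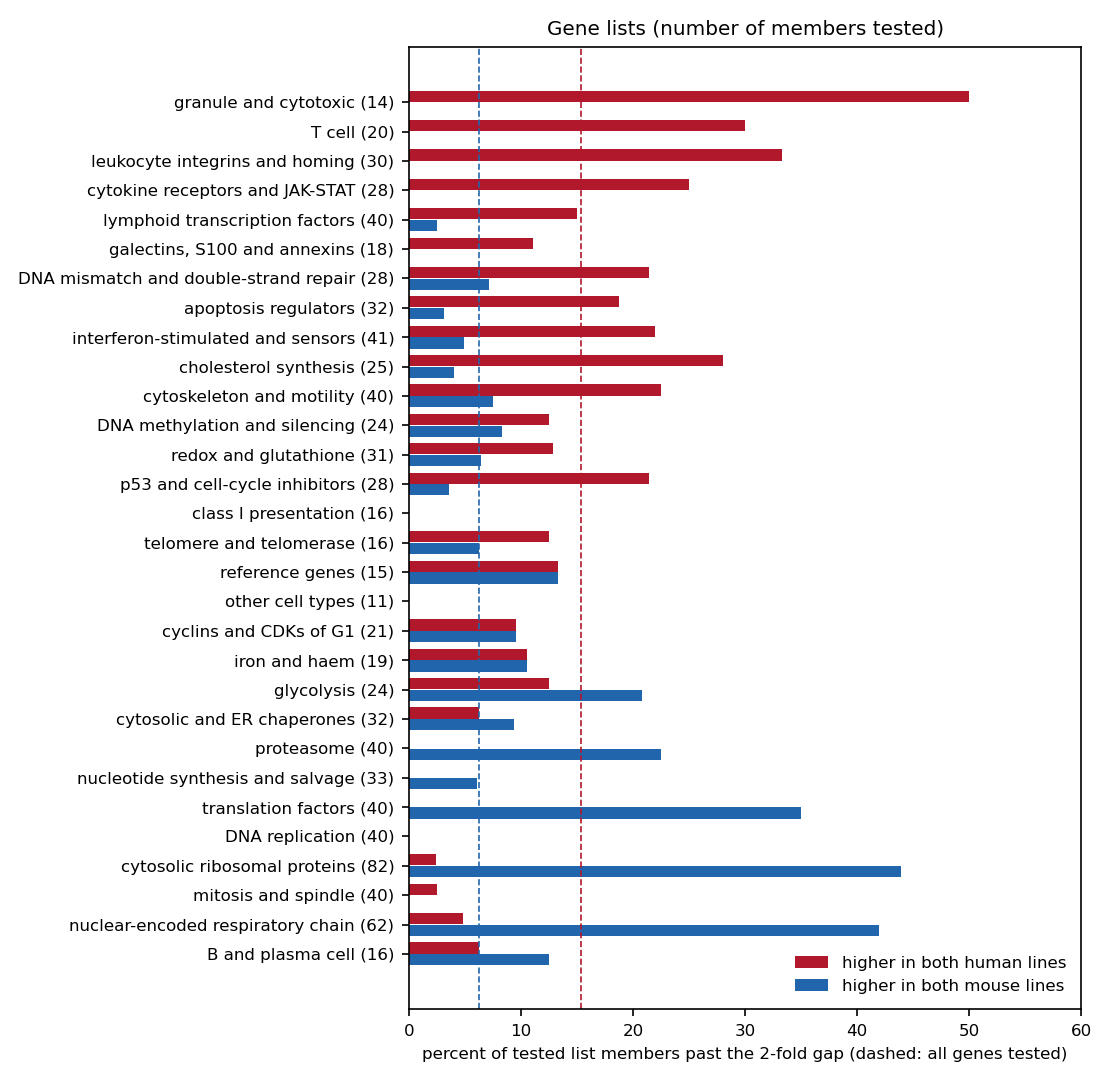
For each gene list, with the number of members tested in brackets, the bars give the percent called human higher (red) and mouse higher (blue), ordered by the median difference, and the dashed lines mark 15.4% and 6.29% for all genes tested. Cytotoxic granule genes reach 50% human higher, and ribosomal protein genes 43.9% and respiratory chain genes 41.9% mouse higher.

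Genes often used as references did not all sit at equal levels. ACTB was at 6658 and 5216 in the human lines against 3281 and 1801, a gap of 1.59-fold, and GAPDH at 7324 and 2183 against 2093 and 824, a gap of 1.04-fold. PPIA was at 1372, 695, 1469 and 2015. TBP, a subunit of the general transcription machinery, was human higher at 89.8 and 64.5 against 16.2 and 16.3. Its human length was 2038 bases and its mouse length 13400, and in RPM it turned to a mouse-higher log2 gap of 0.70. HPRT1 was not in the shared set.

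The genes nearest to the threshold show what a 2-fold gap means. EPB41L5 was just inside it on the human side, at 16.8 and 11.3 against 5.16 and 4.86, and SLC35B4 just outside, at 65.0 and 41.2 against 20.1 and 18.9. On the mouse side OARD1 was just inside, at 36.6 and 34.6 against 74.2 and 103, and ELOF1 just outside, at 51.0 and 30.2 against 103 and 149. In RPM none of these 4 genes kept its direction with a log2 gap above 0.09. ELOF1 had a human-higher log2 gap of 1.51 there, at a recovered length of 4173 bases in human and 182 in mouse. A recovered length can miss a factor, and the reads behind RPM then miss it too. Whether this holds for ELOF1 was not tested, so its RPM direction is uncertain.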

How the data were processed

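Messenger RNA of 4 cell lines was sequenced in bulk with 1 stranded library per line. Alignment by the authors used STAR 2.5.1b and a combined hg19 and mm10 reference, and genes were counted with featureCounts 1.6.3 and deposited as FPKM. The handling of strand, overlaps and several alignments is not given in the sources used here. There were 0 further columns.

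Values were rescaled to 1000000 over the shared genes, and gaps were taken on value + 1 among genes at 1 or more in at least 1 library, with no test. Reads and lengths were recovered at a relative tolerance of 1e-12 and covered 98.05% to 99.26% of the library totals. The recovered length can miss a factor, and the recovered reads then miss it too. Reads give counting error only. Symbols and exons came from GENCODE 44 on GRCh37 and M21 on GRCm38. The paper names other releases, from Ensembl, for its reference, so overlap percentages may differ from those of the counted gene models. Python 3.11.15, NumPy 2.4.6, pandas 2.3.3, SciPy 1.17.1, matplotlib 3.10.9 and bedtools 2.31.1 were used, and the gap calculation was tested on simulated data.

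The members, lists and alternatives were chosen with earlier results of these data known. The naming rule took the 15 largest gaps per direction among genes at 10 or more in the higher lines, up to 3 called members per list and direction, up to 10 genes at 0 in the other species, the 5 highest genes per species, reference genes and the 2 genes nearest the threshold on each side. Genes on the Y chromosome were counted and not named, and some other genes that the rule names are not reported here. Other genes were named after their values were seen.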

Additional observations from a re-analysis of the deposited data

Results flagged for a closer look

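Rows of the other species were not part of the comparison but held values above 0 in every library. Over the shared genes, the rows of the other species took 0.147% of the FPKM in IVA12 and 0.03389% in EL4, and 0.05325% and 0.05755% in the human lines Jurkat and TALL104. There were no control libraries for these rows, and no limit of detection is given for them here. Of the genes with the largest gaps, LDHB was at 1.65 on its human row in IVA12 and EEF1G at 1.58 on its mouse row in Jurkat.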

How the results depend on the processing

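There were 1806 human-higher and 735 mouse-higher genes. The FPKM as deposited gave 768 human-higher genes. Gene lengths within 1.5-fold gave 882 and 247 of 6015 genes, any gap 4420 and 2123, and a 4-fold gap 697 and 265. Leaving out 1 library gave 2573 to 3297 human-higher and 1116 to 1588 mouse-higher genes, since fewer lines have to be separated. Without Jurkat the counts were 3297 and 1588, without TALL104 3216 and 1116, without EL4 2651 and 1570, and without IVA12 2573 and 1372. A pseudocount of 0.1, no filter, a minimum of 5, median ratio scaling, ribosomal protein genes left out and RPM kept both counts within 1.5-fold, as did leaving out genes with shared sequence, which was chosen after seeing the data. Of 30 list medians, 15 were above 0, and 11 to 18 were under the alternatives, with 14 to 18 when 1 library was left out. The sign of a list median changed in 22 of 270 pairs of a list and an alternative, in 12 lists, of which 7 pairs were without TALL104. Among these were DNA replication (-0.89 to 0.39), mitosis (-0.995 to 0.55) and G1 cyclins (-0.28 to 0.61), beside 0.42 for all genes without TALL104. Signs were taken against 0, while the median over all genes tested was 0.50, with 0.17 under median ratio scaling and 0.15 in RPM. A change of sign is therefore not by itself a change against all genes. Among the 9 lists with a median of at least 1 in size, 2 changed sign. The median of the B-cell and plasma-cell genes turned from -1.61 to 0.22 without IVA12, beside 0.51 for all genes. It ranged from -3.73 to 0.22 when 1 library was left out. The median of the DNA repair genes turned from 1.17 to -0.12 in RPM, beside 0.15 for all genes. The cause was not tested. Low values rest on few reads, so levels near 0 are limited by depth. No paired analysis was possible because each line has 1 library.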
